A study of Mus musculus with 14 samples.

Results

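Cadherins are calcium-dependent adhesion proteins of the cell surface. The cadherin and protocadherin genes described here were all autosomal protein-coding genes of the RefSeq annotation whose symbol is Cdh followed by a digit or begins with Pcdh. There were 90 such genes among 20665 autosomal coding genes, 23 cadherins and 67 protocadherins. The clustered protocadherins of chromosome 18 made up 57 of them (14 Pcdha, 22 Pcdhb and 21 Pcdhg genes), so that the 90 genes fall into 36 loci when each cluster is counted as 1. The X-linked genes Pcdh11x and Pcdh19 and the pseudogene Pcdhgb8 lie outside this definition. Of 57289 consensus peaks, each 700 bp wide, 82 overlapped the span of a member or lay within 1 kb of its ends.

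Accessibility was measured by bulk ATAC-seq, in which the transposase Tn5 cuts open chromatin, in long-term haematopoietic stem cells (LT-HSCs) of C57BL/6 mice, sorted from bone marrow as Lin- Sca1+ cKit+ CD34- Flt3-. Aged Ri cells (n = 5) came from mice over 80 weeks of age and were exposed for 16 h to 100 µM Rhosin, a small molecule that inhibits RhoA, a small GTPase known for its control of actin. Aged cells (n = 5) came from mice over 80 weeks of age and young cells (n = 4) from mice of 10 to 16 weeks, and both were kept for the same 16 h in the same medium without Ri. The 14 libraries held 765533 to 3176246 counts in peaks and were sequenced in 3 batches, each of which held libraries of all 3 groups (batch 3 held 1 of each).

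Classical cadherins bind cadherins of the neighbouring cell through repeated extracellular domains and bind catenins inside the cell, which link them to actin. Non-clustered protocadherins of the delta-1 and delta-2 subfamilies have their own cytoplasmic motifs in place of the catenin-binding tail. Clustered protocadherins are best known from neurons, where they give single cells distinct surface identities. In the Pcdha and Pcdhg clusters the genes differ by alternative first exons, each with a promoter of its own. In bone marrow, N-cadherin (Cdh2) and E-cadherin (Cdh1) have been studied in niche cells and erythroid precursors, and VE-cadherin (Cdh5) is the junction protein of endothelium.

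The RefSeq promoter table (GRCm38.p6) listed a start for 21 of the 90 genes, with 24 windows of 250 bases before to 50 bases after a start. A consensus peak overlapped 8 of the 24 windows (33.3%), at 7 genes (Cdh22, Cdh24, Pcdh8, Pcdh9, Pcdh10, Pcdh17 and Pcdh18), against 55.5% of the 20085 windows of all autosomal coding genes. The sequences follow for the starts of Pcdh10 and Pcdh18, whose peaks were called more accessible in aged Ri than in young cells, for Pcdh17, which had the highest level among the delta-2 start peaks, and for Pcdh15, whose listed start lay in no peak. Capitals mark CpG dinucleotides, which number 24, 23, 26 and 8 in the order shown.
Pcdh10 (chr3:45378148-45378447, plus strand): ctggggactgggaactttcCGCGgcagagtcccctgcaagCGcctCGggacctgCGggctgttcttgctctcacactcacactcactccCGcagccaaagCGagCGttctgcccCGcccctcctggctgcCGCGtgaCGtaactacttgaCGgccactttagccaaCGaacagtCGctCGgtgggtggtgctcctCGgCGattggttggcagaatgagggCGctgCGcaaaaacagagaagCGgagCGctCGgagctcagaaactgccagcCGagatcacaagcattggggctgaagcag
Pcdh18 (chr3:49757267-49757566, minus strand): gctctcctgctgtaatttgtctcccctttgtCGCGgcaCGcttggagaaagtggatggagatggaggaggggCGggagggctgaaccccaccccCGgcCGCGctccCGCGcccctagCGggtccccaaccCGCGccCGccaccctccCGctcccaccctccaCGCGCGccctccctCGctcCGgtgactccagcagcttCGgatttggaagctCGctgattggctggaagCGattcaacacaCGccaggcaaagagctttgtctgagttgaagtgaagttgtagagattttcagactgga
Pcdh17 (chr14:84443313-84443612, plus strand): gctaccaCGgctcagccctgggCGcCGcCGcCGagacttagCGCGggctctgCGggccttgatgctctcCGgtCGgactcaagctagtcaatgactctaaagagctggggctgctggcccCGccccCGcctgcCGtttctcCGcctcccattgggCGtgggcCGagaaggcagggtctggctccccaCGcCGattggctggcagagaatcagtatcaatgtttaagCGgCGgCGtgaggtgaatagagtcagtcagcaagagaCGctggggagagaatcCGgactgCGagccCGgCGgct
Pcdh15 (chr10:73821617-73821916, plus strand): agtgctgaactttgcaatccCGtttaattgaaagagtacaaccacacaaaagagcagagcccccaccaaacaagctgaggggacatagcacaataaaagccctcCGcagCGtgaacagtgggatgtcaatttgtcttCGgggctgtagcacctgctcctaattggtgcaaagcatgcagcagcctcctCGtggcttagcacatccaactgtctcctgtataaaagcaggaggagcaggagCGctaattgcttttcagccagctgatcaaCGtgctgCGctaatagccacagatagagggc

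The member windows that overlapped a peak held a median of 23.5 CpG dinucleotides, and the 16 member windows with no peak a median of 8. The corresponding medians over all coding genes were 22 and 4, so the members' windows followed the general pattern of CpG-rich starts lying in peaks. The E-box CACCTG, whose letters are bound by the Snail and Zeb repressors of E-cadherin, was searched on both strands. It occurred in 5 of the 24 member windows (20.8%), all 5 among the windows with no peak, and in 4024 of the 20085 windows of all coding genes. The 5 windows were the 3 of Cdh7 and 1 each of Pcdh7 and Pcdh15. Over all coding genes it occurred in 17.4% of windows that overlapped a peak and 23.3% of windows with none. With 8 member windows in peaks, the members cannot be set apart from those shares.

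Accessible sites were unevenly spread over the family. At least 1 peak was present at 60 of the 90 genes (66.7%), against 73.0% of all autosomal coding genes, and at 27 of the 36 loci (75.0%). The 9 loci with no peak were the type II cadherin genes Cdh6, Cdh7, Cdh8, Cdh9, Cdh18 and Cdh19, the muscle cadherin gene Cdh15, Cdh26 and the endothelial protocadherin gene Pcdh12. Among the clusters, peaks reached all 14 Pcdha and all 21 Pcdhg genes but 1 of 22 Pcdhb genes, Pcdhb1. The Pcdhb spans are short and separate, while those of the Pcdha and Pcdhg genes are long and nest in each other, so that 1 peak reaches many genes. Genes with nested spans share peaks, so the 60 genes hold 32 distinct peak sets, and overlapping genes of a cluster cannot be told apart.

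**Figure D1:**
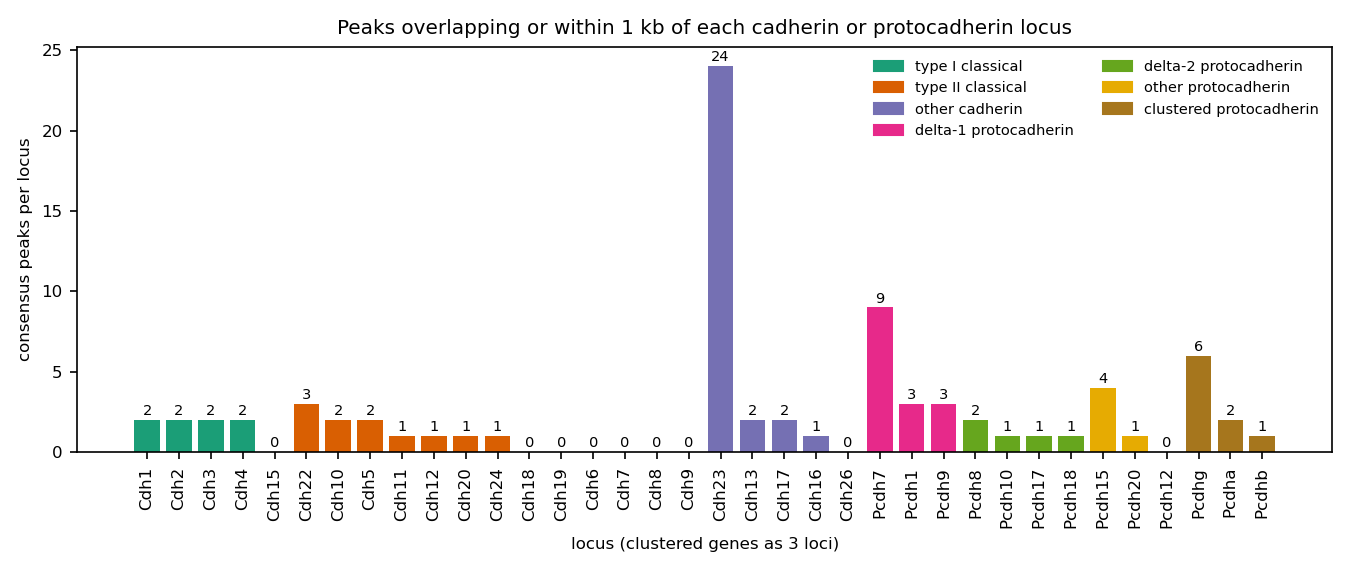
Number of consensus peaks (y axis) overlapping or within 1 kb of each of the 36 loci (x axis), grouped and coloured by subfamily, with the Pcdha, Pcdhb and Pcdhg genes shown as 3 loci. Cdh23 held 24 of the 82 peaks, Pcdh7 held 9, the Pcdhg cluster 6, and 9 loci held none.

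Peaks were sparse for the size of these genes. Outside the clusters, 23 members were at least 50 kb long, and 16 of them (69.6%) held a peak, against 92.0% of the 4725 autosomal coding genes of that length. Their median density was 0.436 peaks per 100 kb, against 2.75 over all genes of that length. Cdh23, which encodes a long cadherin of the hair-cell tip link and carries the gene Vsir (the immune checkpoint receptor VISTA) within its span, was dense by comparison with 6.06 peaks per 100 kb. Of its 24 peaks, 9 lay within 1 kb of Vsir. By position, 11 of the 82 peaks lay within 1 kb of a listed start, 16 within 1 kb of an end of the span and 55 further inside. A start was listed for 21 members, so peaks at span ends of the others include peaks at unlisted starts.

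Per kb of peak, the highest mean level over the 14 libraries was at Cdh17, the liver and intestine cadherin, with 42.2 TMM-scaled CPM per kb, followed by Pcdh17 with 36.7, Cdh16 (kidney cadherin) with 30.9, Cdh24 with 30.6 and Pcdh10 with 27.9 CPM per kb. The Cdh24 peak also lies within 1 kb of the coding gene Acin1, and the Pcdh17 peak covers a start of the gene Gm32498. Of the 82 member peaks, 19 lay within 1 kb of another coding gene, whose part in the signal cannot be told apart. They were 9 Cdh23 peaks near Vsir, the Cdh24 peak and the 9 peaks of the protocadherin clusters. At the clusters the other genes were Gm37013, Gm38666 and Gm38667, whose spans cover all these cluster peaks. The lowest levels per kb of peak were at Cdh1 with 6.44 and Cdh20 with 6.64 CPM per kb. Summed over all its peaks, Cdh23 had 325 ± 29.3 CPM in aged Ri and 340 ± 26.2 CPM in aged cells (SD, n = 5 each), and 310 ± 18.7 CPM in young cells (SD, n = 4). Member peaks had a median mean count of 18.6 per library, close to the 18.0 of all peaks, so single peaks carry large counting error. The labels call the samples biological replicates and do not give the number of animals in each, so p-values measure the spread between these samples.

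Member peaks took 0.0835 to 0.119% of all counts in aged Ri libraries, 0.0855 to 0.105% in aged libraries and 0.0766 to 0.0828% in young libraries. All 5 aged Ri and all 5 aged libraries lay above the highest young library. Over the 14 libraries this share ran against the share of counts in peaks at the ends of coding genes (Pearson r = -0.84 over 14 libraries, whose shares have the same total as denominator). That gene-end share was 35.9 to 46.8% in aged Ri, 38.8 to 49.6% in aged and 47.0 to 50.8% in young libraries. It was added as a covariate in an alternative fit, whose values close each comparison with young cells.

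**Figure D2:**
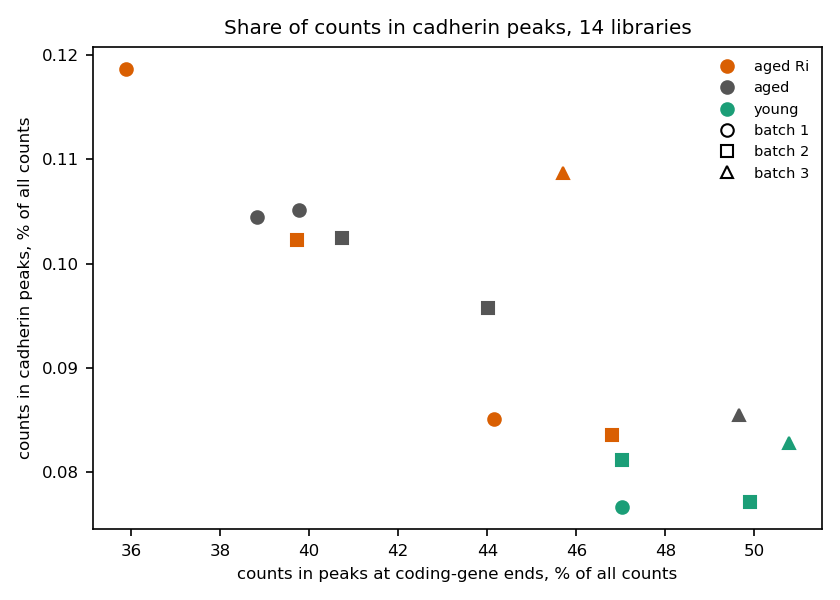
Share of each library's counts in the 82 cadherin peaks (y axis, % of all counts) against its share in peaks at coding-gene ends (x axis, % of all counts), with colour for group and shape for batch. The 4 young libraries lie at the low right, at 0.0766 to 0.0828% and 47.0 to 50.8%, and aged Ri 1 lies at the upper left with 0.119% and 35.9%.

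Marker genes of cell types were read as a description. All 12 LT-HSC markers held peaks, but so did 73.0% of all autosomal coding genes, so holding a peak does not establish identity. The summed level of the LT-HSC markers was 1196 to 1622 CPM in aged Ri, 1177 to 1670 CPM in aged and 837 to 1193 CPM in young libraries. All 13 endothelial markers also held peaks, with 601 to 813, 593 to 726 and 554 to 675 CPM in the same order of groups. Peaks were held by 8 of 12 stromal and osteoblast, 5 of 8 epithelial, 4 of 6 autosomal neural, 5 of 6 megakaryocyte, 5 of 6 erythroid, 4 of 6 T and NK-cell and 5 of 6 myeloid markers. No peak was held by the epithelial genes Krt5, Krt14 and Cldn4 or by the stromal genes Lepr, Cxcl12, Prrx1 and Bglap. The stromal markers with a peak summed to 336 to 416 CPM in aged Ri, 359 to 406 CPM in aged and 365 to 418 CPM in young libraries. Group ranges overlapped for the stromal, epithelial, neural, megakaryocyte, erythroid and myeloid sums. The sum over the 3 B-cell markers with a peak lay at 46.0 to 83.3 CPM in aged Ri, 51.9 to 98.0 CPM in aged and 94.2 to 176 CPM in young libraries. LT-HSC markers were called higher in aged than in young cells at 4 of 12 genes and in aged Ri than in young cells at 7 of 12, and endothelial markers at 2 and 3 of 13, where 3.85% and 7.7% of all genes were called higher (edgeR on gene sums). In the same 2 comparisons 1 of the 6 megakaryocyte markers was called higher, and 1 and 2 of the 3 B-cell markers with a peak were called lower (0.604% and 2.39% of all genes). The T and NK-cell markers summed to 121.0 to 154.9 CPM in aged Ri, 121.1 to 203.5 CPM in aged and 173.9 to 236.7 CPM in young libraries, with none called. The part of other cell types in the results was not tested. In bulk libraries a change in the number of cells with an open site and a change in openness per cell cannot be told apart.

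The first comparison, aged against young LT-HSCs, asked how the accessibility of adhesion genes differs with age. Every member peak that was called was more accessible in aged cells: sites inside Pcdh7, Pcdh15, Cdh13, Cdh20 and Cdh23 and a site in the Pcdhg cluster, by 1.73 to 3.09-fold. They were 6 of the 80 member peaks that passed the filter on low counts (7.50%), at an edgeR adjusted p under 0.05. Over all 56235 peaks tested 5.72% were called, 4.45% as higher, so the members' count of calls was near the background. No member peak was called lower (background 1.26%). The median log2 fold change was 0.19 over the 80 member peaks, against -0.01 over all peaks. The calls were spread over 6 loci of different subfamilies, and all 6 lay inside the span of a gene, none at a listed start. Of the 2504 peaks called higher over the whole series, 2331 lay inside genes or between them and 96 at listed starts. Among the 80 member peaks tested, 53 lay inside. No start is listed for Cdh13 or the Pcdhg genes.

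Among type II cadherins, Cdh20, expressed in the nervous system, had a single peak (chr1:104986022-104986721). Its level was 9.63, 8.79, 6.39, 4.11 and 6.23 CPM in aged libraries 1 to 5, against 3.11, 3.44, 2.84 and 1.45 CPM in young libraries 1 to 4. Every aged library lay above every young library. The fold was 2.54 (log2 1.34 ± 0.41 SE; edgeR adjusted p = 0.0453), with log2 differences of 1.31, 0.57 and 1.55 within batches 1, 2 and 3. The call ended without any of 6 libraries (aged 1, 2 or 5, young 1, 3 or 4; edgeR adjusted p from 0.0586 to 0.294) and with no batch term (0.0769). The osteoblast cadherin gene Cdh11 (chr8:102667035-102667734) had 16.8, 17.6, 26.3, 15.1 and 6.23 CPM in aged libraries and 3.11, 5.50, 9.94 and 9.19 CPM in young libraries. Aged 5 lay within the young range, and the peak did not pass (log2 1.31 ± 0.42 SE; edgeR adjusted p = 0.0633).

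Cdh13 encodes T-cadherin, which lacks the cytoplasmic tail and is anchored by a lipid. Its peak at chr8:118830136-118830835 had 11.2, 9.96, 14.3, 11.0 and 11.6 CPM in aged libraries, against 4.44, 6.87, 5.68 and 3.39 CPM in young libraries. The groups did not overlap. The fold was 2.36 (log2 1.24 ± 0.32 SE; edgeR adjusted p = 0.0175), and log2 was 1.09, 0.90 and 1.51 within the 3 batches. The call ended without aged 3 (edgeR adjusted p = 0.0686), aged 5 (0.0504) or young 1 (0.119). The other Cdh13 peak did not pass (log2 -0.36 ± 0.35 SE).

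Cdh23 had its highest peak 119 kb from the listed start (chr10:60577211-60577910). It held 65.0, 60.9, 90.2, 69.1 and 49.9 CPM in aged libraries and 20.4, 57.7, 27.0 and 51.8 CPM in young libraries. Young 2 and young 4 reached the level of aged 5, so the groups overlapped. The fold was 1.73 (log2 0.79 ± 0.25 SE; edgeR adjusted p = 0.0499), with log2 1.58, 0.98 and -0.05 within batches 1, 2 and 3. In batch 3 the direction did not hold, and the call ended without aged 1, 2, 3 or 4 or young 1 or 3 (edgeR adjusted p from 0.0552 to 0.352). It also ended with RLE (relative log expression) size factors (edgeR adjusted p = 0.0547), trended offsets (0.0641), no filter (0.0516), no batch term (0.118) or the 2 groups alone (0.0636). The 9 peaks near Vsir had a median log2 of -0.32 and the 15 other Cdh23 peaks one of 0.36. Summed over all 24 peaks, Cdh23 did not pass (log2 0.28 ± 0.13 SE; edgeR adjusted p = 0.197).

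Pcdh7, a delta-1 protocadherin, had the smallest p of the family in this comparison. Its peak at chr5:57781807-57782506, 64 kb from the listed start, held 23.3, 27.0, 23.7, 24.6 and 12.5 CPM in aged libraries and 4.44, 13.7, 5.68 and 7.26 CPM in young libraries. The 4 aged libraries of batches 1 and 2 stood above all young libraries, while aged 5 lay just under young 2. The fold was 2.70 (log2 1.43 ± 0.30 SE; edgeR adjusted p = 0.00297), and log2 was 2.25, 1.34 and 0.70 within the 3 batches. Of the libraries left out in turn, young 1 ended the call (edgeR adjusted p = 0.0804). Log2 was above 0 at 7 of the 9 Pcdh7 peaks, with a median of 0.71. Their sum was 102, 117, 117, 104 and 93.5 CPM in aged libraries, above every young library at 48.9, 81.8, 59.6 and 84.7 CPM. The fit scaled over gene sums gave a 1.73-fold difference (log2 0.79 ± 0.18 SE; edgeR adjusted p over gene sums = 0.0138). Scaled over peaks, as these CPM are, log2 was 0.65 and the gene was not called (edgeR adjusted p = 0.0523). Without aged 3, young 1 or young 3 the gene call ended (edgeR adjusted p from 0.0529 to 0.162).

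**Figure D3:**
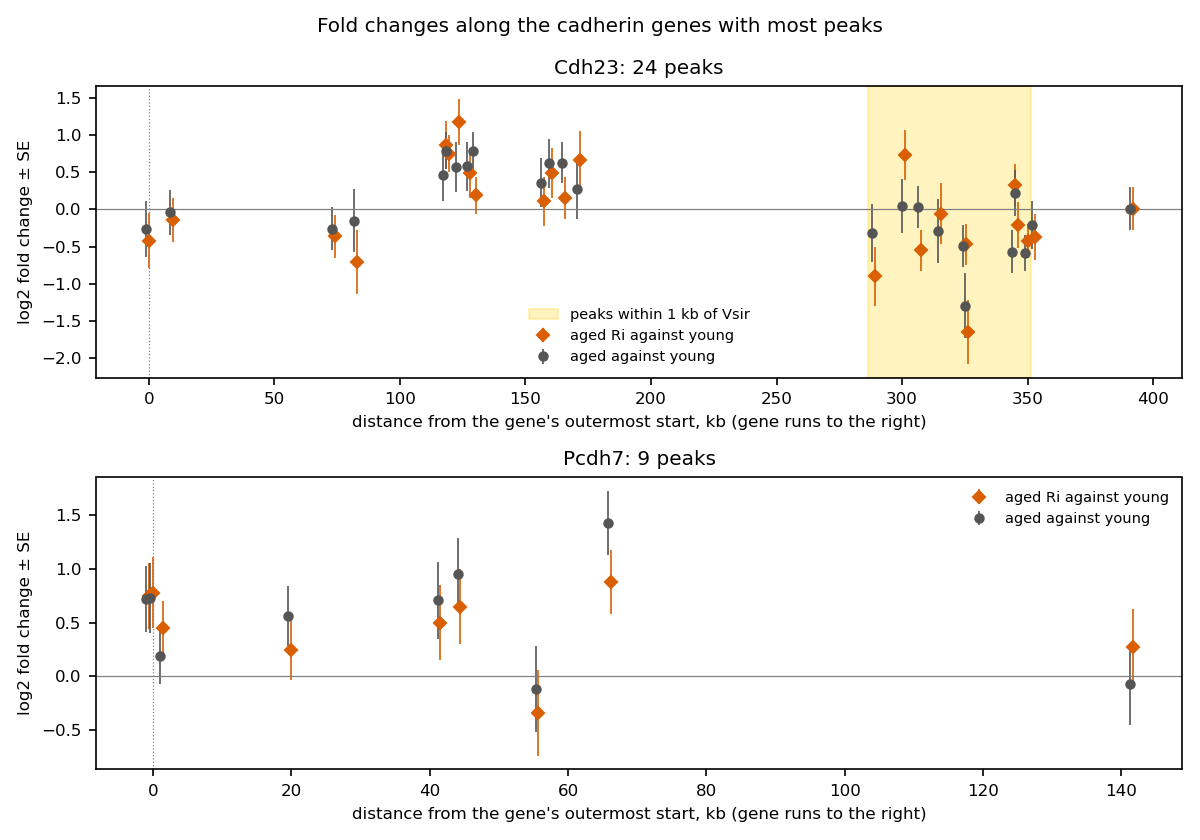
Log2 fold change with its standard error (y axis) of the 24 Cdh23 and 9 Pcdh7 peaks against their distance from the gene's outermost start in kb (x axis), for aged Ri against young (diamonds) and aged against young (circles). Both comparisons use the same young libraries. For aged Ri and for aged against young cells the medians of Cdh23 are -0.42 and -0.32 over the 9 peaks near Vsir and 0.15 and 0.36 over the 15 others, and those of Pcdh7 are 0.50 and 0.71.

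Pcdh15, the partner of Cdh23 in the tip link, gave the largest fold of the called peaks, at a site 326 kb from the listed start (chr10:74147744-74148443). It had 17.7, 6.44, 14.3, 8.90 and 6.23 CPM in aged libraries and 3.11, 6.19, 1.42 and 1.94 CPM in young libraries. The groups did not overlap, although aged 5 and young 2 were nearly level. Counts here were low, with a mean of 15.7 per library, and young 3 had the fewest counts of all libraries (765533). The fold was 3.09 (log2 1.63 ± 0.40 SE; edgeR adjusted p = 0.0110), and log2 was 1.51, 1.55 and 1.29 within the 3 batches. Without aged 3 or young 1 the call ended (edgeR adjusted p = 0.0595 and 0.0861). All 4 Pcdh15 peaks had a log2 above 0, and their sum was 1.87-fold higher (log2 0.90 ± 0.21 SE; edgeR adjusted p = 0.0143).

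In the Pcdhg cluster, whose genes share their 3′ exons, the peak at chr18:37835473-37836172 held 26.5, 22.9, 38.0, 18.5 and 13.8 CPM in aged libraries and 4.00, 7.56, 9.94 and 15.5 CPM in young libraries. The batch 3 libraries, aged 5 and young 4, were in reversed order, and the groups overlapped there. The fold was 2.57 (log2 1.36 ± 0.34 SE; edgeR adjusted p = 0.0165), with log2 2.35, 1.51 and -0.15 within batches 1, 2 and 3. The call ended without aged 3, young 1 or young 2 (edgeR adjusted p from 0.0753 to 0.171). The other 5 Pcdhg peaks had log2 values of -0.10 to 0.22. No peak of the Pcdha or Pcdhb cluster passed. The sum over the Pcdha peaks had log2 0.43 ± 0.26 SE (edgeR adjusted p = 0.338) and Pcdhb1 had 0.75 ± 0.35 SE (0.206).

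Counts were also summed per gene over all its peaks. Of the 60 genes, 5 (8.33%) were called higher in aged cells and none lower, against 4.46% of the 15058 genes tested (3.85% higher, 0.604% lower). They were Pcdh7, Pcdh15, Cdh20, Pcdhgc4 (1.78-fold; edgeR adjusted p = 0.0434) and Pcdh10, a delta-2 protocadherin that binds the actin-regulating WAVE complex (1.94-fold; edgeR adjusted p = 0.0355). Pcdh10 has 1 peak, and in the test over peaks the same counts were not called (1.80-fold; edgeR adjusted p = 0.0563). The calls of Pcdhgc4 and Pcdh10 each ended without any of 6 libraries (aged 1, 2 or 3, young 1, 2 or 3; edgeR adjusted p from 0.0848 to 0.275 for Pcdhgc4 and from 0.0602 to 0.221 for Pcdh10), and that of Pcdh10 with no batch term (0.127). The median log2 over the 60 genes was 0.47, against -0.01 over all genes, but many of these genes share peaks. Scaling over gene sums in place of peaks shifted log2 upward by 0.15 here, 0.01 in aged Ri against aged and 0.16 in aged Ri against young. On the peak scale 1 gene, Pcdh15, kept its call (log2 0.74; edgeR adjusted p = 0.0495).

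The classical type I genes did not pass in any comparison. Cdh1, which encodes E-cadherin, had a summed 10.4, 8.51, 6.78, 10.8 and 8.90 CPM in aged Ri, 12.03, 9.37, 5.26, 9.58 and 10.7 CPM in aged and 11.1, 11.7, 4.26 and 6.77 CPM in young libraries. Cdh2, which encodes N-cadherin, had 8.27 to 20.2 CPM in aged Ri, 6.84 to 17.7 CPM in aged and 2.84 to 26.1 CPM in young libraries. The ranges of the groups overlapped throughout for both genes. Cdh3 (P-cadherin) and Cdh4 (R-cadherin) had log2 0.29 ± 0.25 SE and -0.22 ± 0.32 SE in aged against young cells. Of the other highly accessible members, Cdh17 summed to 57.0 ± 15.6 CPM in aged Ri and 63.7 ± 18.0 CPM in aged cells (SD, n = 5 each), and 56.0 ± 6.31 CPM in young cells (SD, n = 4). Cdh22, a type II cadherin of the brain, had 30.4 ± 9.76 CPM in aged Ri and 32.4 ± 5.87 CPM in aged cells (SD, n = 5 each), and 31.9 ± 10.6 CPM in young cells (SD, n = 4). The delta-1 gene Pcdh1 had 23.6 ± 5.28 CPM in aged Ri and 21.8 ± 2.49 CPM in aged cells (SD, n = 5 each), and 20.4 ± 3.12 CPM in young cells (SD, n = 4). None of these 3 genes passed in any comparison, and their groups overlapped.

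Leaving out libraries moved the count of 6 called peaks widely. It was 0 without young 1, 1 without aged 3 and 13 without young 4. For the 5 genes the count was 0 without young 1 or aged 3, 1 without young 3, 2 without aged 1 or aged 2, 3 without young 2, 8 without young 4 and 26 without aged 5. In the fit that included the gene-end share no member peak or gene was called, and 145 peaks (0.258%) were called in all. Log2 was then 1.36 at Cdh20 (edgeR adjusted p = 0.442), 1.22 at Cdh13 (0.271), 0.50 at Cdh23 (0.679), 1.13 at Pcdh7 (0.255) and 0.74 at the Pcdhg peak (0.671), and Pcdh15 had an edgeR adjusted p of 0.509. That share moved with the groups, and its part in the calls was not tested beyond this fit.

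The second comparison, aged Ri against aged LT-HSCs, asked whether inhibition of RhoA for 16 h changed the same sites. No member peak and no member gene was called. With edgeR the background was 0.446% of 56235 peaks and 0.0598% of 15058 genes, so a count of 0 among 80 peaks or 60 genes is no departure from it. An unadjusted p under 0.05 was reached by 18 of 80 peaks (22.5%, against 10.2% of all peaks) and 7 of 60 genes (11.7%, against 7.6%). DESeq2 also called 0 (background 0.409% of peaks and 0.0996% of genes), with 11 peaks and 5 genes at an unadjusted p under 0.05 (7.63% and 6.14% over all). The blocked fit, with aged Ri and aged libraries of equal number as pairs, called 0 as well (background 0.685% and 0.286%), with 17 peaks and 6 genes at an unadjusted p under 0.05 (11% and 8.67% over all).

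Values differed with the position of the peak. At the 11 peaks within 1 kb of a listed start, log2 was above 0 at 10, with a median of 0.42, while over all 11187 start peaks 50.8% were above 0 with a median of 0.00. At the 53 peaks inside spans it was above 0 at 22 (41.5%), with a median of -0.11, against -0.04 over all peaks inside genes or between them. The exception among the starts was Cdh23 (log2 -0.16 ± 0.34 SE). None of the 11 start peaks passed by itself, and the position classes were compared as a description, with no test.

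**Figure D4:**
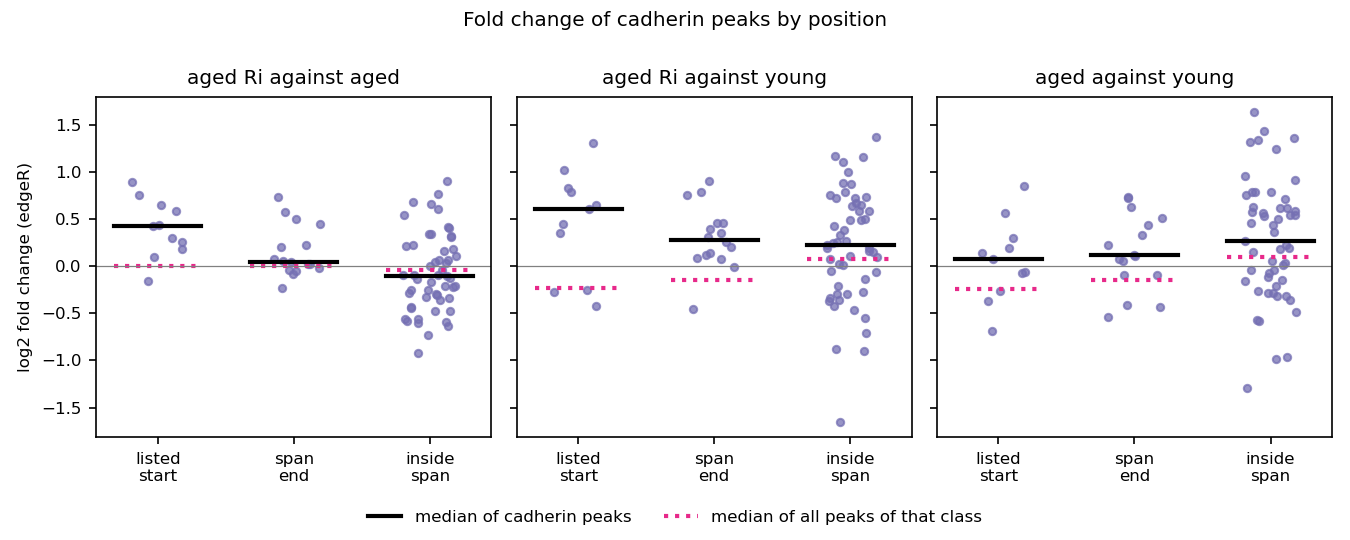
Log2 fold change of the 80 member peaks tested (y axis) by position at a listed start, at a span end or inside the span (x axis), in the 3 comparisons, with the members' median as a black bar and the median of all peaks of that class as a dotted bar. In aged Ri against aged cells 10 of 11 start peaks lie above 0, with a median of 0.42, and 22 of 53 inside peaks do, with a median of -0.11.

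The delta-2 protocadherins, which steer actin-dependent cell movement in development, had a log2 of 0.18 to 0.75 at all 5 of their peaks. The Pcdh18 start peak (chr3:49756828-49757527) held 9.89, 11.9, 11.9, 10.8 and 18.2 CPM in aged Ri libraries and 7.22, 4.10, 8.65, 8.90 and 8.02 CPM in aged libraries. Every aged Ri library lay above every aged library, yet the peak did not pass (1.68-fold, log2 0.75 ± 0.27 SE; edgeR adjusted p = 0.261), and log2 within batches was 0.87, 0.34 and 1.09. The Pcdh17 start peak (chr14:84443093-84443792) held 21.9, 20.4, 35.5, 27.3 and 43.7 CPM in aged Ri libraries and 14.4, 21.7, 24.8, 19.2 and 29.4 CPM in aged libraries. Its groups overlapped (log2 0.42 ± 0.20 SE; edgeR adjusted p = 0.487). The Pcdh8 start peak (chr14:79771053-79771752) had a log2 of 0.58 ± 0.24 SE (edgeR adjusted p = 0.368), and Pcdh10 one of 0.18 ± 0.23 SE (0.891).

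The delta-1 gene Pcdh9 had the largest value among the starts (chr14:93890631-93891330). It held 11.98, 11.9, 13.9, 11.2 and 16.2 CPM in aged Ri libraries and 11.2, 5.27, 5.64, 4.11 and 9.80 CPM in aged libraries. Aged 1 reached the lowest aged Ri library, and the difference did not pass (1.86-fold, log2 0.89 ± 0.29 SE; edgeR adjusted p = 0.177). In a fit of the aged Ri and aged libraries alone, the Cdh23 peak at chr10:60351743-60352442, near Vsir, was called (log2 0.90; edgeR adjusted p = 0.0318). It held 14.6, 22.1, 28.4, 28.1 and 17.4 CPM in aged Ri libraries, against 12.03, 9.96, 9.02, 18.5 and 10.7 CPM in aged libraries. Aged 4 lay within the aged Ri range, and with all 14 libraries the edgeR adjusted p was 0.124.

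Sites that were higher in aged than in young cells are given here by their own values. The Pcdh7 peak at 64 kb held 16.7, 15.3, 20.01, 15.5 and 8.09 CPM in aged Ri libraries (log2 -0.56 ± 0.24 SE against aged; edgeR adjusted p = 0.404). The Cdh20 peak held 5.73, 5.11, 2.58, 3.24 and 2.43 CPM (log2 -0.92 ± 0.33 SE; edgeR adjusted p = 0.253). The Pcdhg peak held 17.7, 16.2, 20.01, 12.2 and 11.3 CPM (log2 -0.64 ± 0.28 SE; edgeR adjusted p = 0.422). At all 3 sites the 5 aged Ri libraries lay below the aged mean of 22.2, 7.03 and 23.9 CPM, without passing the test. Both comparisons use the same aged libraries, in which these sites were chosen for being high. That choice alone favours lower values in aged Ri libraries, so the direction cannot be told apart from it. At the Pcdh15, Cdh13 and Cdh23 (119 kb) peaks log2 was -0.25 ± 0.30, -0.14 ± 0.26 and -0.04 ± 0.22 (SE).

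The third comparison, aged Ri against young LT-HSCs, asked how treated aged cells differ from young cells. Start sites of the delta-2 genes Pcdh10 and Pcdh18 and sites inside Cdh5, Cdh12, Cdh13, Cdh23 and Pcdh15 were more accessible in aged Ri cells, by 1.68 to 2.59-fold, and a Cdh23 site near Vsir was less accessible. These were 9 of 80 peaks (11.2%), 8 higher and 1 lower, against 11.5% of all peaks tested (7.9% higher, 3.56% lower). The members' share of calls was again near the background. The median log2 was 0.26 over member peaks and -0.03 over all peaks.

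Of the type II cadherins, Cdh5 encodes VE-cadherin. Its peak at chr8:104103318-104104017 held 8.85, 8.51, 11.0, 7.91 and 8.90 CPM in aged Ri libraries, against 5.77, 5.50, 2.84 and 2.90 CPM in young libraries. The groups did not overlap (2.00-fold, log2 1.00 ± 0.34 SE; edgeR adjusted p = 0.0471), and log2 within batches was 0.51, 1.04 and 1.34. The call ended without any library of either group but aged Ri 4 (edgeR adjusted p from 0.0501 to 0.128). It also ended with DESeq2 (adjusted p = 0.0872) and, in edgeR, with RLE size factors (adjusted p = 0.0508), trended offsets (0.0531), no batch term (0.0629) or the 2 groups alone (0.0726). Summed over both peaks, Cdh5 had 24.0, 21.3, 29.7, 24.1 and 17.0 CPM in aged Ri libraries and 14.2, 15.1, 14.2 and 8.22 CPM in young libraries. The sums did not overlap either, and this call (2.02-fold; edgeR adjusted p = 0.00533) held without each library in turn.

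Cdh12, a cadherin of the brain, had a single peak (chr15:21109164-21109863) with 8.85, 9.37, 8.07, 5.03 and 8.90 CPM in aged Ri libraries and 2.67, 2.75, 4.26 and 4.84 CPM in young libraries. The lowest aged Ri library, aged Ri 4, lay just above young 4. The fold was 2.23 (log2 1.16 ± 0.37 SE; edgeR adjusted p = 0.0387), and log2 within batches was 1.46, 0.73 and 0.76. Without aged Ri 1, 2, 3 or 5 or young 1, 2 or 3 the call ended (edgeR adjusted p from 0.0542 to 0.159), as it did with DESeq2 (0.0732), no batch term (0.0584) or the 2 groups alone (0.051).

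Cdh23 had calls in both directions. Its peak 123 kb from the start (chr10:60573220-60573919) held 14.1, 10.2, 21.0, 15.8 and 12.5 CPM in aged Ri libraries and 4.00, 12.4, 5.68 and 5.32 CPM in young libraries. Young 2 lay within the aged Ri range, and the fold was 2.25 (log2 1.17 ± 0.31 SE; edgeR adjusted p = 0.0122; within batches log2 1.37, 1.02 and 1.10). This call ended without young 1 (edgeR adjusted p = 0.0608). The peak near Vsir (chr10:60370510-60371209), 326 kb from the start of Cdh23, held 8.85, 3.41, 3.23, 7.91 and 4.85 CPM in aged Ri libraries and 39.5, 11.7, 17.0 and 6.29 CPM in young libraries. Its young values spread widely, with young 1 far above the others and young 4 within the aged Ri range. It fell 3.15-fold (log2 -1.65 ± 0.43 SE; edgeR adjusted p = 0.0170), with log2 -2.62, -1.30 and -0.32 within the batches. The call ended without young 1 (edgeR adjusted p = 0.219), young 3 (0.0502) or aged Ri 3 (0.0569).

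The delta-2 start sites gave the smallest p-values. Pcdh18 held the aged Ri values given above against 3.55, 5.50, 2.84 and 8.22 CPM in young libraries, with no overlap. The fold was 2.47 (log2 1.30 ± 0.32 SE; edgeR adjusted p = 0.00657), with log2 1.38, 1.30 and 1.06 within the 3 batches, and the call held without each library in turn. Pcdh10 (chr3:45377908-45378607) held 16.1, 19.6, 30.3, 20.1 and 32.8 CPM in aged Ri libraries, 20.9, 14.1, 23.7, 21.9 and 23.6 CPM in aged libraries and 6.66, 9.62, 9.94 and 24.2 CPM in young libraries. Young 4 lay among the libraries of the other groups. The fold of aged Ri over young was 2.03 (log2 1.02 ± 0.26 SE; edgeR adjusted p = 0.0103), and log2 was 1.29, 1.25 and 0.42 within batches. Without young 1 or young 2 the call ended (edgeR adjusted p = 0.0596 and 0.0532), as it did with no batch term (0.082). The start of the non-coding gene 2610316D01Rik lies in the same peak, and its share of the signal cannot be told apart.

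The 3 sites higher in aged cells that were also called here had their own values in aged Ri libraries. The Pcdh15 peak held 9.89, 7.66, 11.3, 6.83 and 7.68 CPM, all above the young libraries (2.59-fold; edgeR adjusted p = 0.0215, lost without aged Ri 3 or 5 or young 1 or 3, at 0.0584 to 0.0822). The Cdh13 peak held 14.1, 11.1, 11.0, 11.9 and 6.47 CPM, where aged Ri 5 overlapped young 2 (2.14-fold; edgeR adjusted p = 0.0230, lost without aged Ri 1 at 0.0648, young 1 at 0.0977 or with the 2 groups alone at 0.0502). The Cdh23 peak at 119 kb held 55.7, 69.8, 82.6, 62.9 and 53.8 CPM and overlapped young 2 (1.68-fold; edgeR adjusted p = 0.0429, lost without aged Ri 1, 2 or 3 or young 1 or 3, at 0.0559 to 0.278). This call also ended with trended offsets (edgeR adjusted p = 0.0511), no batch term (0.102) or the 2 groups alone (0.0641). Within batch 3 its log2 was 0.05. Both comparisons use the same young libraries.

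**Figure D5:**
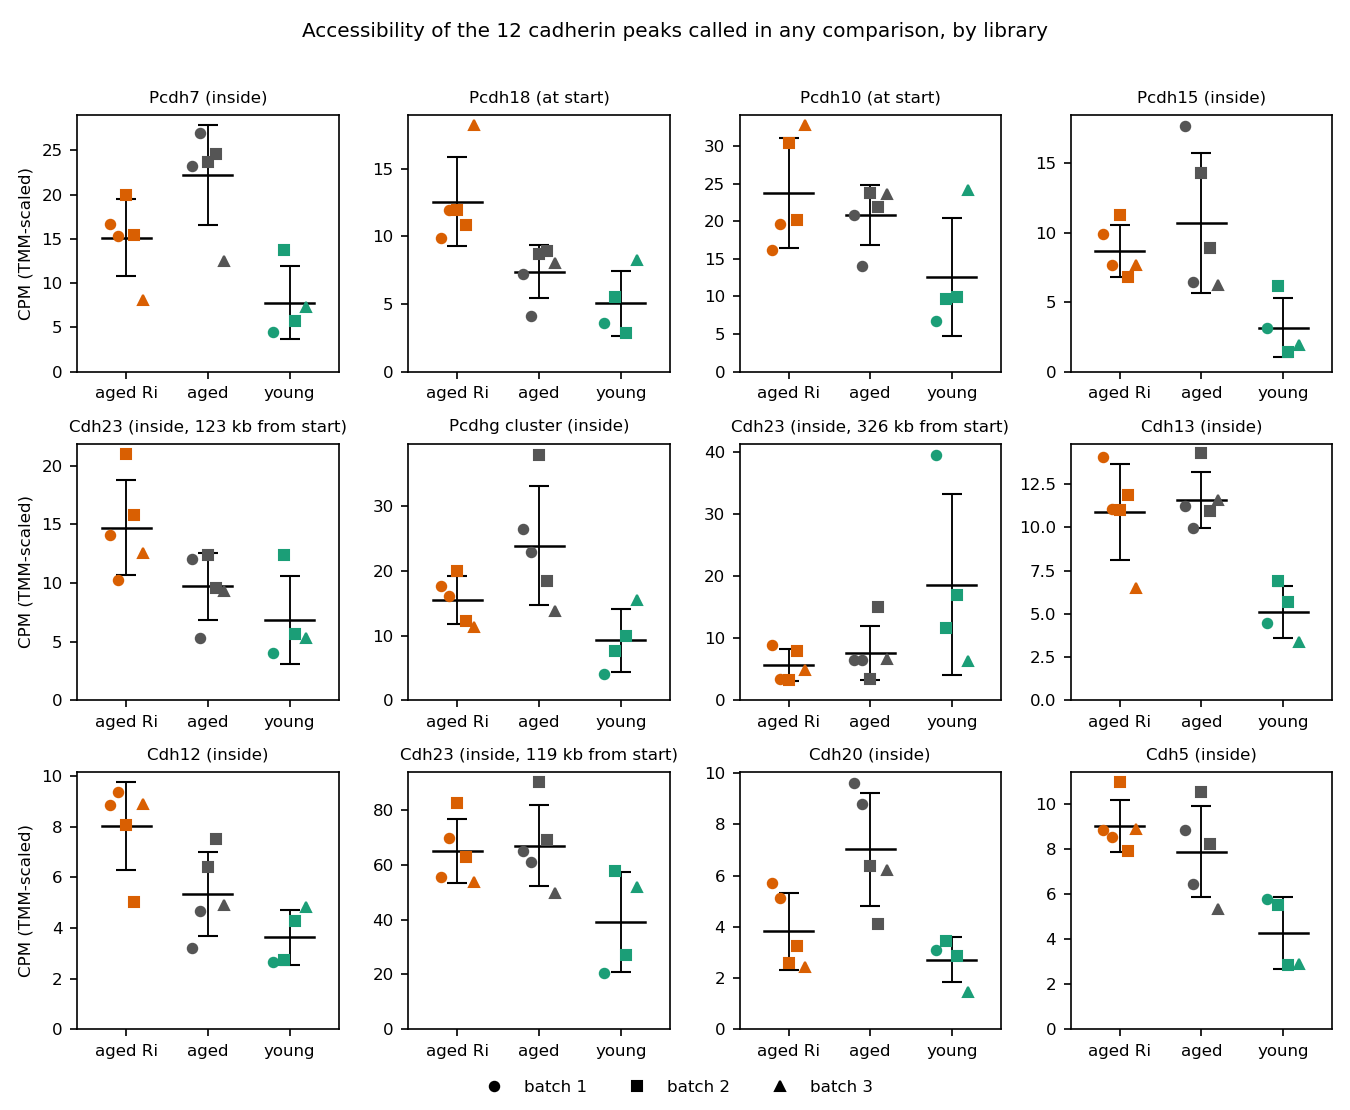
TMM-scaled CPM (y axis) of the 12 member peaks called in at least 1 comparison, in aged Ri, aged and young libraries (x axis), with shape for batch, a bar at the mean and whiskers of 1 SD. Pcdh18 is highest in the 5 aged Ri libraries (9.89 to 18.2 CPM), the Cdh20 peak lies at 2.43 to 5.73 CPM in aged Ri, 4.11 to 9.63 CPM in aged and 1.45 to 3.44 CPM in young libraries, and the Cdh23 peak near Vsir (326 kb) is highest in young 1 (39.5 CPM).

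In gene sums, 26 of 60 genes (43.3%) at 8 loci were called higher in aged Ri than in young cells, against 10.1% of all genes tested (7.7% higher, 2.39% lower), and none lower. Counted as loci, 8 of the 27 tested held a called gene, and no matching share over all loci was computed. Sharing inflates the gene count, since 19 of the 26 are Pcdhg genes that share most of their peaks. The other 7 were Cdh5, Cdh12, Pcdh7, Pcdh9, Pcdh10, Pcdh15 and Pcdh18, led by Pcdh18 (2.74-fold; edgeR adjusted p = 0.00442). The 14 genes Pcdhga1 to Pcdhgb6 had 92.7, 92.8, 95.2, 79.5 and 93.0 CPM in aged Ri libraries and 67.5, 69.4, 82.3 and 67.7 CPM in young libraries. Young 3 lay above aged Ri 4, and the fold scaled over gene sums was 1.43 (log2 0.52 ± 0.15 SE; edgeR adjusted p = 0.0224). Scaled over peaks, as these CPM are, log2 was 0.35 (edgeR adjusted p = 0.126). On the peak scale 6 genes were called (Cdh5, Cdh12, Pcdh9, Pcdh10, Pcdh15 and Pcdh18), and none of them was a Pcdhg gene.

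In the fit that included the gene-end share no member was called, and 559 peaks (0.994%) were called in all. Log2 was then 1.18 at Pcdh18 (edgeR adjusted p = 0.176), 0.74 at Pcdh10 (0.346), 0.75 at Cdh5 (0.529), 0.89 at Cdh12 (0.497), 1.07 at Cdh13 (0.242) and 0.85 at Pcdh15 (0.544). At the Cdh23 peaks 119, 123 and 326 kb from the start it was 0.45 (edgeR adjusted p = 0.560), 0.87 (0.371) and -0.88 (0.606). Without young 1 the peak count fell to 1 (Pcdh18) and the gene count to 3. It was 4 peaks and 5 genes without aged Ri 3, 5 peaks and 11 genes without aged Ri 1, 6 peaks and 6 genes without aged Ri 5, 5 peaks without young 3 and 5 genes without young 2. The blocked fit called 3 peaks and 4 genes, but numbers do not pair aged Ri with young libraries.

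Levels of some member peaks ran together across libraries. After removal of batch means, log2 CPM of the Pcdh7 peak at 64 kb was most like that of the Cdh23 peak at 119 kb (Pearson r = 0.91), Pcdh7 chr5:57760029 (0.89) and the Pcdhg peak (0.83), over 14 libraries and among 79 other member peaks. The Pcdh15 peak was most like the Cdh5 peak at chr8:104103318 (r = 0.90). Libraries share groups and the gene-end share, so these values only describe the 14 libraries.

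Other genes of the adhesion machinery were read in gene sums. Of 20 catenin and junction-partner genes, 2 were higher in aged than in young cells and none lower (3.85% and 0.604% of all genes). They were Ctnna2, which encodes the neuronal alpha-catenin (24.3 ± 2.04 CPM in aged cells, SD, n = 5, and 15.5 ± 4.95 CPM in young cells, SD, n = 4; edgeR adjusted p = 0.0337), and Ctnnd1, which encodes p120-catenin, the stabiliser of cadherins at the surface (38.4 ± 9.97 CPM in aged cells, SD, n = 5, and 29.3 ± 4.97 CPM in young cells, SD, n = 4; edgeR adjusted p = 0.0477). Both were also higher in aged Ri than in young cells (1.80 and 1.67-fold; edgeR adjusted p = 0.0213 and 0.0105). The list's median log2 in aged against young cells was 0.01.

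Of 18 other cadherin-superfamily genes with a peak, 3 were higher in aged than in young cells and none lower (3.85% and 0.604% of all genes). They were the giant protocadherins Fat1 (1.66-fold; edgeR adjusted p = 0.0447) and Fat3 (1.59-fold; 0.0232) and Clstn1, which encodes calsyntenin-1, a cargo adaptor of kinesin (1.52-fold; 0.0341). In aged Ri against young cells 5 were higher (Fat3, Dchs2, Cdhr5, Clstn1 and Dsc2), where 7.7% of all genes were. Cdhr4 was lower (2.39% of all genes), at 3.84 ± 1.69 CPM in aged Ri cells (SD, n = 5) and 14.6 ± 7.43 CPM in young cells (SD, n = 4; edgeR adjusted p = 0.00963). Clstn1 held 110 ± 19.6 CPM in aged Ri cells (SD, n = 5) and 67.7 ± 11.5 CPM in young cells (SD, n = 4; edgeR adjusted p = 0.00233), and its call ended under the gene-end share covariate alone. The other calls of these lists each ended under 2 to 14 of the alternative settings or left-out libraries. The superfamily list had a median log2 of 0.39 in aged against young cells and 0.56 in aged Ri against young cells. Over all genes these medians were -0.01 and -0.02.

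None of 6 genes of cadherin processing was called. Of 18 regulators, Zeb2, a repressor of E-cadherin with roles in stem cell differentiation, was higher in aged than in young cells (1.63-fold; edgeR adjusted p = 0.0410) and in aged Ri than in young cells (1.66-fold; edgeR adjusted p = 0.0192). Wiz, a partner of the histone methyltransferases G9a and GLP, was lower in aged Ri than in young cells (1.51-fold; edgeR adjusted p = 0.0224). No gene of these 4 lists was called in aged Ri against aged cells (with edgeR, 3 of 20, 2 of 18, 0 of 6 and 2 of 18 at an unadjusted p under 0.05). Background shares over all genes are those given for the gene sums above.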

How the data were processed

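Bulk ATAC-seq libraries of 14 samples (5 aged Ri, 5 aged, 4 young) were given as 1 table of raw counts per consensus peak. The counts were deposited by the authors unnormalized, and the submitters' processing notes name SAMtools 1.14, R 4.2.0, featureCounts and the build mm10. The aligner, the peak caller, duplicate removal and any Tn5 shift are not given in the sources used here. Totals of 765533 to 3176246 counts per library give a median of 7 to 30 counts per peak. Genes and starts came from RefSeq (GRCm38.p6).

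Counts per peak, and counts summed per autosomal coding gene over peaks within 1 kb of its span, were tested with edgeR 4.0.16 in R 4.3.3 (filterByExpr by group, TMM scaling, robust quasi-likelihood fit with group and sequencing batch over all 14 libraries). P-values were Benjamini-Hochberg adjusted over all features kept, with a threshold of 0.05. The filter removed 2 of 82 member peaks (Cdh1 chr8:106655862 and Pcdh9 chr14:93566739). CPM values, also those of gene sums, use TMM library sizes over peaks. Folds and log2 values of gene sums use TMM over gene sums unless the peak scale is named, so they differ from ratios of the CPM. The fits were also run on simulated counts with the same dispersion for every feature. The simulation held no batch effect and no shift in the gene-end share, so it does not bear on how these affect the calls. Alternatives were relative log expression (RLE) size factors, trended offsets, no filter, DESeq2 1.42.0, no batch term, the gene-end share as covariate, the 2 groups alone, other windows, a replicate block and each library left out. Gene sums on the peak scale, and members without peaks near another coding gene, were added after seeing the data. Other tools were limma 3.58.1, Python 3.11.15, numpy 2.4.6, pandas 2.3.3 and matplotlib 3.10.9.

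Numbers were taken to pair aged Ri with aged libraries. Same-numbered samples share a batch in the labels, and their deviations from group means over 25903 well-covered peaks correlated at 0.137 to 0.645 in all 5 pairs. Batch was not removed from these deviations, so the correlations do not separate pairing from a shared batch. The most similar aged library had the same number for aged Ri 1, 2, 3 and 5, but not for aged Ri 4. Members and lists were chosen with earlier results of these data known. Named peaks and genes are those called, at most 20 per comparison by smallest p, the 8 genes with the highest mean CPM, and a set of classical cadherins and protocadherins named whatever their values. Other start peaks and Cdh11 were named after their values were seen.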

Additional observations from a re-analysis of the deposited data

Results flagged for a closer look

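In 10 of 93 group and feature combinations a library stood far from the others of its group, where chance gives about 1 in 20. Among peaks, aged Ri 5 had 18.2 CPM at the Pcdh18 start, against 9.89 to 11.9 CPM in the other aged Ri libraries. Aged 5 had 12.5 CPM at Pcdh7 chr5:57781807, against 23.3 to 27.0 CPM in the other aged libraries, and aged 4 had 15.1 CPM at Cdh23 chr10:60370510, against 3.38 to 6.68 CPM.

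Among gene sums, aged Ri 5 had 47.7 CPM at Cdh22 (others 24.5 to 27.3 CPM) and aged Ri 4 had 79.5 CPM over Pcdhga1 to Pcdhgb6 (others 92.7 to 95.2 CPM). Aged 3 had 89.1 CPM over Pcdhga12 to Pcdhgc3 (others 67.2 to 72.6 CPM) and aged 5 had 294.3 CPM at Cdh23 (others 342.7 to 360.7 CPM). Young 3 had 82.3 CPM over Pcdhga1 to Pcdhgb6 (others 67.5 to 69.4 CPM). Young 4 had 8.22 CPM at Cdh5 (others 14.2 to 15.1 CPM) and 282.0 CPM at Cdh23 (others 317.5 to 320.9 CPM).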

How the results depend on the processing

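In aged against young cells the 6 called peaks became 0 when the gene-end share was a covariate and 0 to 13 when a library was left out. The 5 called genes became 8 with DESeq2, 3 with no batch term, 0 with the covariate, 24 with the 2 groups alone, 1 on the peak scale and 0 to 26 without a library. In aged Ri against aged cells 1 peak was called with the 2 groups alone, and 0 peaks and 0 genes under the other settings, left-out libraries (0 to 0) and the replicate block. In aged Ri against young cells the 9 peaks became 5 with no batch term, 0 with the covariate, 5 with the 2 groups alone and 1 to 11 without a library, and the 26 genes became 0 with the covariate, 6 on the peak scale and 3 to 29 without a library. Numbers do not pair young libraries: correlations of same-numbered deviations were -0.278 to 0.07 with aged and -0.201 to 0.073 with aged Ri libraries. With the replicate block, aged against young cells had 6 peaks and 25 genes, and aged Ri against young cells 3 peaks and 4 genes. The young share of counts in member peaks was 0.0870% with a 5 kb window, against 0.0794%. In aged Ri against aged cells, where no member passed, the Pcdh15 sum (log2 0.01) turned to -0.0011 with RLE size factors, -0.0022 with no filter, -0.02 with the covariate, -0.0035 over spans alone and -0.01 on the peak scale. Its range without a library was -0.12 to 0.11. Such ranges also crossed 0 for the sums of Pcdh10 (-0.0039 to 0.31), Pcdhga12 to Pcdhgc3 (-0.04 to 0.16), Pcdhga10 to Pcdhga11 (-0.03 to 0.14) and Pcdhga1 to Pcdhgb6 (-0.04 to 0.14). Among peaks they crossed 0 for Cdh13 chr8:118830136 (-0.27 to 0.01) and for Cdh23 chr10:60577211 (-0.17 to 0.06) and chr10:60370510 (-0.59 to 0.11). DESeq2 gave no adjusted p for some low-count features, such as Cdh20, which have no value there. Beyond what the covariate and left-out libraries show by construction, the cause was not tested. Low counts per peak limit what single sites can show.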
